A study of Homo sapiens with 8 samples.

Results

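The data described here are the pair of RNA-seq libraries from CAL-62 cells, a line established from a human anaplastic thyroid cancer. One library came from cells given an siRNA against NR1D1 (siNR1D1) and the other from cells given a control siRNA (siControl). They are 2 of the 8 libraries of the study, which also holds an siNR1D1 and an siControl library of 8505C, a second anaplastic thyroid cancer line, and libraries with an NR1D1 vector or an empty vector in TPC-1 and FTC-133 cells. The labels give the siNR1D1 libraries as NR1D1 knockdown and the siControl libraries as WT, and no time between transfection and harvest was given. Knockdown by siRNA is partial and transient. The CAL-62 table held 58884 genes. Genes of the mitochondrial genome were dropped, both columns were rescaled to a sum of 1000000, and the 10626 of 19932 protein-coding genes with a mean of at least 5 TPM on that scale were taken as measured. Every level below is such a rescaled TPM, which is already per length of transcript. Every log2 ratio is log2((siNR1D1 + 1)/(siControl + 1)), which understates the change of genes at low levels. List values given for 8505C cells are of the genes measured in CAL-62 cells, whatever their level in 8505C cells. There was 1 library a side, so no test was possible, and the intervals given cover counting error only. A difference between these libraries therefore has no replicate check, and "higher" and "lower" compare the siNR1D1 library with the siControl library.

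REV-ERB alpha, the product of NR1D1, is a nuclear receptor that binds heme and, with the corepressor NCOR and the deacetylase HDAC3, silences genes that carry ROR elements in their regulatory regions. Its best known target is BMAL1, the activator of the circadian clock, and BMAL1 with its partner CLOCK or NPAS2 in turn activates NR1D1 through E-boxes, which closes a loop of the clock. In liver, fat and muscle REV-ERB alpha is also known for controlling lipid, heme and inflammatory genes. Anaplastic thyroid cancers have mostly lost the thyroid hormone program, and the CAL-62 libraries showed this: of 20 thyroid differentiation genes 3 were measured, 5 were at 0 in both libraries, and the defining genes TG, TSHR, SLC5A5 and NKX2-1 each stood under 1 TPM in both libraries.

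NR1D1 itself was lower in siNR1D1 cells. It stood at 31.5 TPM in siNR1D1 cells and at 51.3 TPM in siControl cells, which is a ratio of 0.614 (95% counting interval 0.509 to 0.735) from 164 reads with siNR1D1 and 437 with siControl. On the log2 scale its ratio was -0.69, and 973 of the measured genes had a lower one, so the targeted gene was far from the largest decrease. In 8505C cells the same comparison gave 15.7 TPM with siNR1D1 and 25.8 TPM with siControl, a ratio of 0.611 (0.494 to 0.751). NR1D1 lies at chr17:40092787-40100725 on the minus strand of GRCh38 and overlaps THRA, a thyroid hormone receptor gene on the other strand. THRA was at 17.3 TPM in siNR1D1 cells and 15.4 TPM in siControl cells. Whether reads were counted by strand was not given in the sources used here, so reads of the overlap cannot be told apart. The closest relative, NR1D2 (REV-ERB beta), had 80.5 TPM in siNR1D1 cells and 71.5 TPM in siControl cells, a log2 ratio of 0.17. RORA, the activator that competes for the same elements, was near 1 TPM in both libraries, and RORB had at most 1 read.

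Among clock genes BMAL1 and NPAS2, of the activator arm, were higher in siNR1D1 cells. BMAL1 was at 62.5 TPM in siNR1D1 cells and at 28.4 TPM in siControl cells, a ratio of 2.21 (1.98 to 2.46). NPAS2, a partner of BMAL1 that is itself known to carry ROR elements, was at 19.99 TPM with siNR1D1 and 7.44 TPM with siControl, a ratio of 2.69 (2.31 to 3.12). These were the only 2 of the 15 measured clock genes past 2-fold higher, beside 7.15% of all measured genes, and 0 were past 2-fold lower, beside 3.12%. With a trimmed mean scaling BMAL1 was under 2-fold, at a log2 ratio of 0.94, and with mitochondrial genes kept both were, at 0.69 for BMAL1 and 0.83 for NPAS2. Both genes were also above 0 in 8505C cells, at 0.39 and 0.44 on the log2 scale. NFIL3, a repressor at D-boxes and another gene known to be under REV-ERB alpha, had 44.0 TPM in siNR1D1 cells and 23.4 TPM in siControl cells (log2 ratio 0.88), while 8505C cells had a log2 ratio of -0.44. CLOCK differed less, at 42.8 TPM in siNR1D1 cells and 34.3 TPM in siControl cells.

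The repressor and output arms of the clock gave mixed values. PER3 was at 35.3 TPM in siNR1D1 cells and 22.0 TPM in siControl cells, and TEF, an activator at D-boxes, was at 44.3 TPM with siNR1D1 and 27.6 TPM with siControl. PER2, CRY1 and CRY2, the other measured repressors of CLOCK and BMAL1, had log2 ratios of 0.13, -0.16 and 0.03, so they differed little. PER2, CRY2 and CSNK1E changed sign with a trimmed mean scaling, and CLOCK too with mitochondrial genes kept. PER1 and DBP had means under 5 TPM, with 5.01 and 5.28 TPM in siNR1D1 cells against 3.21 and 3.08 TPM in siControl cells. BHLHE40, a repressor that competes at E-boxes, had the lowest ratio of the clock genes, with 307 TPM in siNR1D1 cells and 531 TPM in siControl cells (ratio 0.577, 0.550 to 0.606). Its paralog BHLHE41 stood the other way, at 28.4 TPM in siNR1D1 cells and 19.7 TPM in siControl cells, and CIART had a log2 ratio of 0.46. The kinase genes CSNK1D and CSNK1E, which set the stability of PER proteins, had log2 ratios of -0.20 and 0.05. In all, 11 of 15 clock genes were above 0, beside 51% of all measured genes. Their median log2 ratio was 0.31, beside 0.01 for all measured genes.

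**Figure D1:**
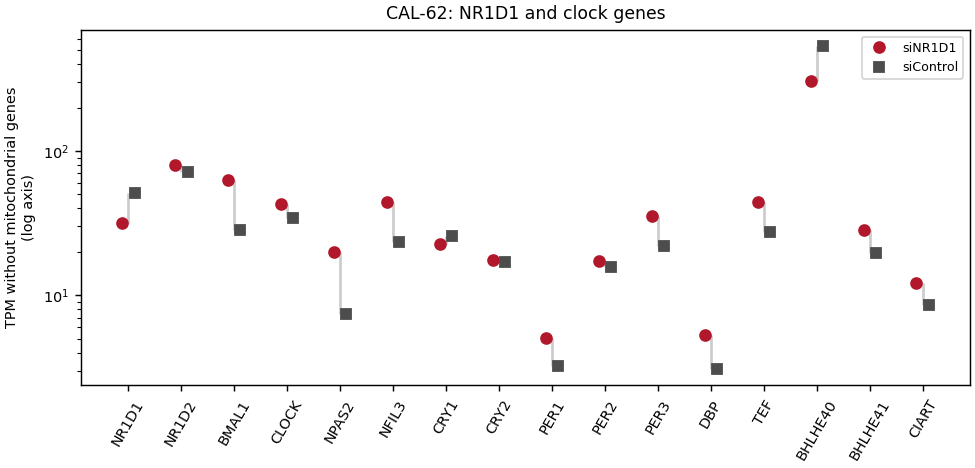
Level of NR1D1, NR1D2 and the clock genes in CAL-62 cells, in TPM rescaled without mitochondrial genes on a log axis, with siNR1D1 as a red circle and siControl as a grey square and 1 library behind each point. BMAL1 is higher with siNR1D1 (62.5 TPM, against 28.4 TPM with siControl), as is NPAS2 (19.99 TPM, against 7.44 TPM with siControl), and NR1D1 is lower (31.5 TPM, against 51.3 TPM with siControl).

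The ROR element was searched as AANTN followed directly by GGTCA, on both strands, in RefSeq promoter windows (GRCh38.p14) from 250 bases before a start site to 50 bases after it. Of the 13 measured clock genes with such a window, 2 held a match, against 0.721% of all 27305 genes with a window. The pair below is shown because BMAL1 is the classical REV-ERB alpha target, with its match 27 bases after the start site, and CLOCK is the other gene with a match. Capitals mark the match, which in CLOCK reads on the opposite strand.
BMAL1, chr11:13277780-13277839, plus strand: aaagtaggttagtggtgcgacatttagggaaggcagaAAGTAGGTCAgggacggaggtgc
CLOCK, chr4:55546115-55546174, minus strand: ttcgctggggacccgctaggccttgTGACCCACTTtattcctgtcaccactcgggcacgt
A match is a description of these letters and not evidence of binding. NPAS2 and NFIL3 had no match in the windows searched, which says nothing of elements elsewhere in those genes.

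Across the 10626 measured genes the median log2 ratio was 0.01, with quartiles of -0.33 and 0.40. At least 2-fold higher in siNR1D1 cells were 760 genes (7.15%), and at least 2-fold lower were 332 (3.12%). These shares are the background for the counts of each gene group below. The longer tail on the higher side held further out: 104 genes were past 4-fold higher and 16 past 4-fold lower, and 24 were past 8-fold higher and 3 past 8-fold lower. These counts depend on how the libraries are brought to one scale. With scaling by a trimmed mean the split was 534 higher and 611 lower, and on the values as deposited, with mitochondrial genes kept, it was 202 higher and 955 lower. Genes with a mean of 5 or more were set apart from the rest by small margins, as FAXDC2, with 7.14 TPM in siNR1D1 cells and 2.87 TPM in siControl cells, lay just inside. TMEM116, at 4.46 TPM with siNR1D1 and 5.54 TPM with siControl, lay just outside.

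The scale matters because mitochondrial transcripts made up more of the deposited TPM with siNR1D1. These made up 67.8% of the deposited TPM in siNR1D1 cells and 57.2% in siControl cells, against 28.6% with siNR1D1 and 29.3% with siControl in 8505C cells. TPM is per length of transcript, so such shares are not shares of reads. Messenger RNAs of the mitochondrial genome took 56.3% of the deposited TPM with siNR1D1 and 47.7% with siControl. Mitochondrial tRNAs took 5.62% with siNR1D1 and 4.01% with siControl. On the deposited scale the median measured gene therefore had a log2 ratio of -0.36. Recovered read totals were 12856345 for siNR1D1 and 17925336 for siControl, and 1 measured gene had fewer than 10 reads over both libraries. Whether the mitochondrial share reflects the siRNA or the state of the sample was not tested.

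**Figure D2:**
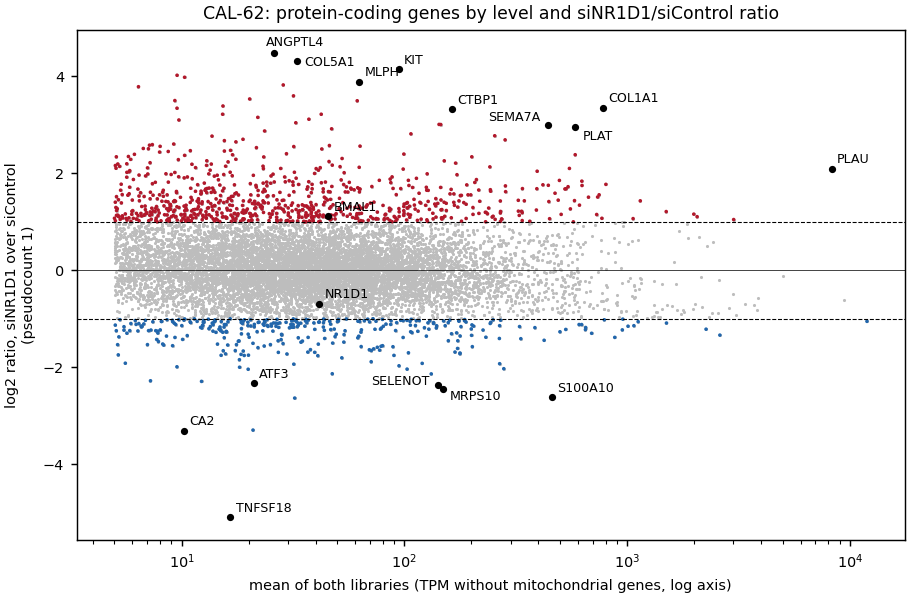
Each point is a measured protein-coding gene in CAL-62 cells, with its mean level over both libraries in rescaled TPM on a log horizontal axis and its log2 ratio of siNR1D1 over siControl on the vertical axis. Red points are the 760 genes at least 2-fold higher, blue points the 332 at least 2-fold lower, the dashed lines mark 2-fold, and NR1D1 sits at -0.69, inside them.

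The 15 highest ratios included genes of secreted, matrix, surface and cytosolic proteins. ANGPTL4, an inhibitor of lipoprotein lipase, was at 50.5 TPM in siNR1D1 cells and 1.31 TPM in siControl cells, a log2 ratio of 4.48 from 236 reads with siNR1D1 and 10 with siControl. KIT, the receptor of stem cell factor, was at 179 TPM in siNR1D1 cells and 9.18 TPM in siControl cells, a ratio of 19.5 (16.6 to 23.1). COL5A1, a chain of fibrillar collagen V, had 63.7 TPM in siNR1D1 cells and 2.24 TPM in siControl cells, a ratio of 28.4 (22.6 to 36.3). The intervals of these genes lie far from 1, so counting error does not limit their direction. It does limit the size of a ratio with few siControl reads, as for ANGPTL4 (38.4, 20.6 to 81.5). Of the 15 highest genes COL1A1, a chain of collagen I, had the highest level, with 1417 TPM in siNR1D1 cells and 138 TPM in siControl cells (ratio 10.3, 9.97 to 10.7). CCDC198 had 99 reads in siNR1D1 cells and none in siControl cells. Against a floor of 3 reads it was 53.9-fold higher, and the lower 95% counting bound of its ratio was 43.0.

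The other highest genes include receptors and a channel. MLPH, a cytosolic adaptor of melanosome transport, was at 118 TPM in siNR1D1 cells and 7.05 TPM in siControl cells. SIRPG, which binds CD47, had 54.3 TPM with siNR1D1 and 2.90 TPM with siControl, and ANO1, a calcium-activated chloride channel, had 59.6 TPM with siNR1D1 and 3.999 TPM with siControl. The ephrin receptor gene EPHA3 and the transmembrane collagen gene COL13A1 had log2 ratios of 3.98 and 4.02. Both were under 1 TPM in siControl cells, with 7 and 4 reads there, so the size of their ratios is imprecise. CD14, a receptor for bacterial lipopolysaccharide, had a log2 ratio of 3.54, the secreted pentraxin gene PTX3 3.50, the matrix gene FBLN2 3.50, the olfactomedin-like gene OLFML3 3.39 and the neurotrimin gene NTM 3.35. Set beside 8505C cells, the same list divided. KIT, COL1A1 and OLFML3 also stood high there, with log2 ratios of 1.99, 2.01 and 2.65, whereas ANGPTL4 stood at 0.00, with 1.32 TPM in siNR1D1 cells and 1.32 TPM in siControl cells. EPHA3 was listed at 0 in both 8505C libraries, and ANO1 at 0 with siNR1D1 and 0.0544 TPM with siControl.

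**Figure D3:**
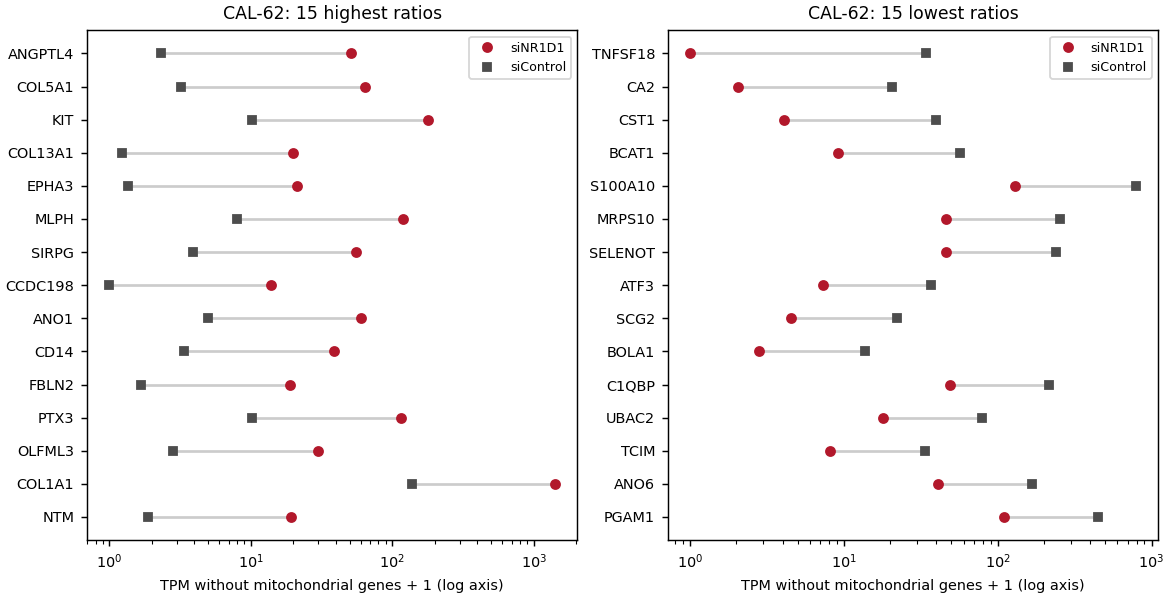
Levels of the 15 genes with the highest ratios (left) and the 15 with the lowest (right) in CAL-62 cells, as rescaled TPM plus 1 on a log axis, with siNR1D1 as red circles and siControl as grey squares and 1 library behind each point. Most of the higher genes start below 10 TPM with siControl, and S100A10, at 128 TPM with siNR1D1 and 792 TPM with siControl, is the most abundant of the lower ones.

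The 15 lowest ratios also came from genes of several kinds. TNFSF18, a ligand of the TNF family, was the extreme, with no read in siNR1D1 cells and 204 reads (33.1 TPM) in siControl cells. Against a floor of 3 reads it was 41.6-fold lower, and the lower 95% counting bound of that fold was 33.5. S100A10, which holds annexin A2 at the plasma membrane, was at 128 TPM in siNR1D1 cells and 792 TPM in siControl cells, a ratio of 0.161 (0.145 to 0.180). SELENOT, a selenoprotein of the endoplasmic reticulum, was at 45.1 TPM in siNR1D1 cells and 238 TPM in siControl cells, and MRPS10, of the mitochondrial small ribosomal subunit, was at 45.3 TPM with siNR1D1 and 252 TPM with siControl. All 3 were also far lower in 8505C cells, with log2 ratios of -2.95, -2.19 and -1.77. The glycolytic enzyme gene PGAM1 was at 109 TPM in siNR1D1 cells and 449.7 TPM in siControl cells, and ANO6, a calcium-activated phospholipid scramblase gene, at 39.6 TPM with siNR1D1 and 166 TPM with siControl. C1QBP, a protein of the mitochondrial matrix, was at 48.3 TPM with siNR1D1 and 216 TPM with siControl, and BCAT1, a branched-chain aminotransferase gene, at 8.20 TPM with siNR1D1 and 56.2 TPM with siControl.

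The rest of the lowest 15 stood under 100 TPM in siControl cells. CA2, a carbonic anhydrase gene, had 1.06 TPM in siNR1D1 cells and 19.5 TPM in siControl cells (4 reads with siNR1D1, 127 with siControl), and CST1, a cystatin gene, had 3.05 TPM with siNR1D1 and 38.8 TPM with siControl. ATF3, a stress-induced transcription factor gene, was at 6.32 TPM in siNR1D1 cells and 35.8 TPM in siControl cells. CA2 and ATF3 stood the other way in 8505C cells, at 0.78 and 0.73 on the log2 scale, a difference between lines that was not tested. SCG2, a secretogranin gene, had a log2 ratio of -2.29, BOLA1 -2.28, UBAC2, which works in degradation from the endoplasmic reticulum, -2.13, and TCIM -2.04.

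A short sequence recurred in the 3' UTRs of the lowest genes. The heptamer ATGAGCA was picked from these same libraries as the one of 15713 heptamers whose carriers scored lowest against other genes, so its shares are a description and support nothing. It occurred in the 3' UTR of 11.4% of 10539 measured genes with a searchable UTR, in 19.1% of 325 genes at least 2-fold lower and in 8.72% of 757 genes at least 2-fold higher. Over all 10539 genes, carriers of the heptamer had a median log2 ratio of -0.01 and the others 0.02, which differ little. Of the 16 genes past 4-fold lower it occurred in 7. The genes lower in both lines carried it in 32 of 100 cases, and the genes 2-fold lower in CAL-62 cells but within 0.5 of 0 in 8505C cells in 7 of 90. The sequence of the siRNA was not given in the sources used here, and whether it matches this heptamer was not tested. The NR1D1 transcript searched did not hold it. Of the 15 lowest genes 7 carried it, and the sites of 6 of these are shown, all but that of CA2, to let the flanks be compared; they are RNA-sense sequences from GENCODE 29 on GRCh38, with the heptamer in capitals.
BCAT1, chr12:24816498-24816524, minus strand: tggagatttgATGAGCAagtggttagg
S100A10, chr1:151983140-151983162, minus strand: gcagaaATGAGCAgttcgctcct
MRPS10, chr6:42208051-42208077, minus strand: ttcagcaaacATGAGCAaaccactttg
SELENOT, chr3:150629004-150629030, plus strand: gaaatgttccATGAGCAtttcctttga
UBAC2, chr13:99386284-99386310, plus strand: gtggaccgccATGAGCAtgaaaagacc
ANO6, chr12:45432149-45432175, plus strand: gtaaaaatgtATGAGCAgcttaactga
A site here marks a string of letters and not a shown target. Leaving out all carriers of ATGAGCA gave 694 genes at least 2-fold higher and 270 lower. Carriers were 66 of the higher and 62 of the lower genes, so these counts were fixed in advance and test nothing.

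Many extracellular matrix genes were higher. Of the collagens outside the basement membrane, 6 of 7 measured were at least 2-fold higher and 0 lower, and the median log2 ratio was 2.46. COL12A1, which links collagen fibrils, was at 27.1 TPM in siNR1D1 cells and 4.09 TPM in siControl cells, beside COL5A1, COL13A1 and COL1A1 above. Among basement membrane genes 12 of 17 were at least 2-fold higher, with a median of 1.21. They included the laminin chains LAMA5, at 179 TPM in siNR1D1 cells and 47.4 TPM in siControl cells, and LAMB3, at 518 TPM with siNR1D1 and 160.2 TPM with siControl. The perlecan gene HSPG2 was at 52.4 TPM with siNR1D1 and 14.6 TPM with siControl, and COL7A1, of anchoring fibrils, at 14.8 TPM with siNR1D1 and 4.20 TPM with siControl. Of 15 other matrix genes 7 were at least 2-fold higher, led after FBLN2 and OLFML3 by the fibrillin gene FBN1, at 255 TPM in siNR1D1 cells and 30.8 TPM in siControl cells. A gene can count as measured through a high level with siNR1D1 alone, which raises such counts and medians. With no filter on low values, 7 of 13 collagens, 14 of 22 basement membrane genes and 8 of 19 other matrix genes were at least 2-fold higher, and the medians were 1.23, 1.09 and 0.90. The 8505C medians of the 3 lists of measured genes were 1.23, 0.75 and 0.82.

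Enzymes that build and cut the matrix stood with it. Of 16 genes for collagen hydroxylation, folding and crosslinking, 11 were at least 2-fold higher, all were above 0 and the median was 1.17, beside 0.41 in 8505C cells. The lysyl oxidase genes LOX and LOXL2, which crosslink collagen and elastin, led them. LOX was at 188 TPM in siNR1D1 cells and 25.9 TPM in siControl cells, and LOXL2 at 491 TPM with siNR1D1 and 75.2 TPM with siControl. P4HA2, a prolyl hydroxylase subunit gene, was at 84.5 TPM in siNR1D1 cells and 18.4 TPM in siControl cells. Among metalloproteases and their inhibitors 5 of 10 were at least 2-fold higher and 0 lower, and with no filter on low values 9 of 19 were. The gelatinase gene MMP2 was at 33.4 TPM in siNR1D1 cells and 4.29 TPM in siControl cells, and MMP14, its membrane-bound activator, was at 979 TPM with siNR1D1 and 273 TPM with siControl. RECK, a membrane-anchored inhibitor of these proteases, was higher too, at 96.9 TPM with siNR1D1 and 29.6 TPM with siControl.

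The genes of plasminogen activation were among the most abundant that differed. PLAU, which encodes urokinase, was at 13431 TPM in siNR1D1 cells and 3149 TPM in siControl cells, a ratio of 4.27 (4.21 to 4.32). Its receptor gene PLAUR was at 336 TPM with siNR1D1 and 65.5 TPM with siControl, and PLAT, the tissue-type activator gene, at 1038 TPM with siNR1D1 and 133 TPM with siControl. S100A10, known as a plasminogen receptor, was the one measured member of 8 past 2-fold lower. Both activators and the urokinase receptor were therefore higher beside a lower S100A10, and 8505C cells had the same signs, with log2 ratios of 1.38, 1.65, 2.07 and -2.95.

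Some adhesion and guidance receptor genes were higher, while many members of each group stood within 2-fold. Of 16 integrin genes 6 were at least 2-fold higher, beside 7.15% of all measured genes, with a median of 0.77. With no filter on low values 7 of 22 were, with a median of 0.66. ITGB4, the laminin-binding partner of hemidesmosomes, was at 168 TPM in siNR1D1 cells and 31.0 TPM in siControl cells, and the collagen-binding ITGA2 was at 834 TPM with siNR1D1 and 252 TPM with siControl. In the immunoglobulin-type adhesion group 6 of 12 were at least 2-fold higher, with a median of 1.17, or 0.70 with no filter on low values. ICAM1, the ligand of leukocyte integrins, was at 445 TPM in siNR1D1 cells and 64.1 TPM in siControl cells, and CEACAM1 was at 77.3 TPM with siNR1D1 and 7.40 TPM with siControl. Semaphorins, plexins and neuropilins had 9 of 18 at least 2-fold higher, or 11 of 25 with no filter on low values. SEMA7A, a membrane-anchored semaphorin that signals through integrins, was at 783 TPM in siNR1D1 cells and 97.0 TPM in siControl cells. Tetraspanins had 4 of 17 at least 2-fold higher and 3 below 0. They were led by CD82 at 45.8 TPM with siNR1D1 and 9.91 TPM with siControl.

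**Figure D4:**
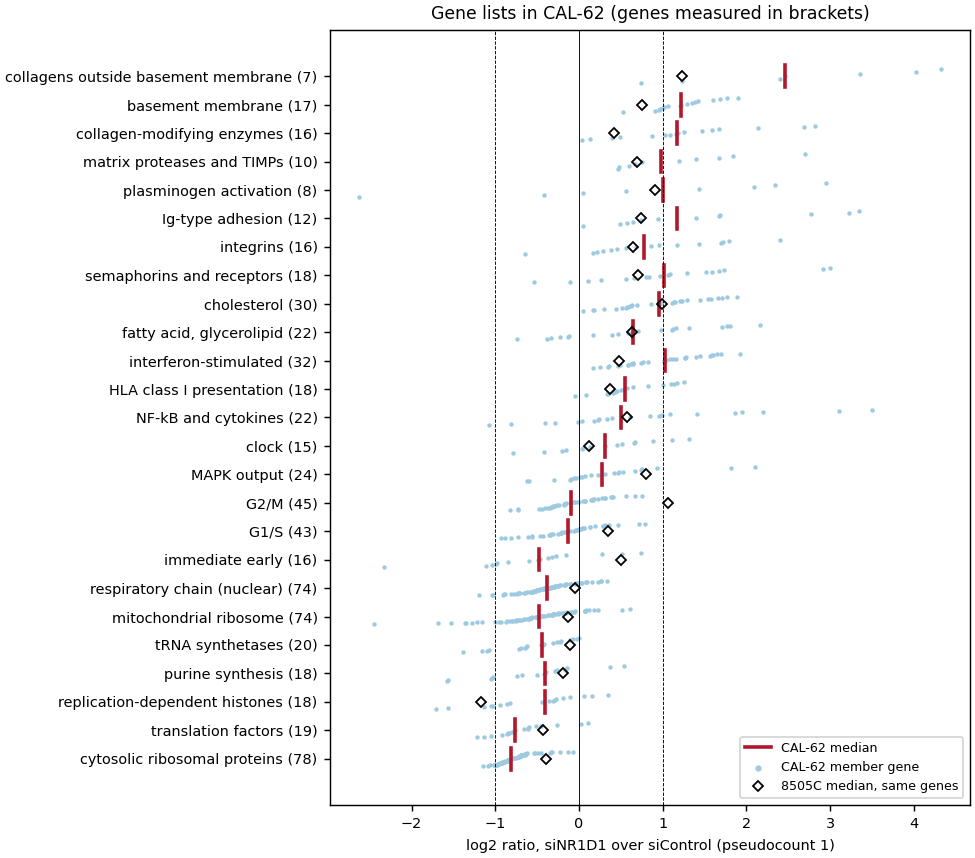
Log2 ratio of siNR1D1 over siControl in CAL-62 cells for 25 gene lists, with each measured gene as a blue point, the list median in CAL-62 cells as a red bar, the median of the same genes in 8505C cells as an open diamond, and 2-fold as dashed lines. The measured collagens have a median of 2.46, which is 1.23 with no filter on low values, cytosolic ribosomal proteins have one of -0.81, and G2/M genes show one of the widest gaps between the lines, at -0.10 and 1.06.

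Growth factor receptors did not move as 1 group. Of 16 measured receptor tyrosine kinase genes 3 were at least 2-fold higher and 1 lower, beside 7.15% and 3.12% of all measured genes. After KIT, MERTK was at 86.7 TPM in siNR1D1 cells and 20.7 TPM in siControl cells, and ERBB3 at 36.1 TPM with siNR1D1 and 17.5 TPM with siControl. EGFR was the lower one, at 79.4 TPM in siNR1D1 cells and 258 TPM in siControl cells (ratio 0.308, 0.293 to 0.324), while its ligand gene HBEGF was higher, at 323 TPM with siNR1D1 and 91.2 TPM with siControl. HBEGF and EMP1 were the 2 of 24 MAPK output genes past 2-fold higher, a share near the 7.15% of all measured genes, and that list had a median of 0.27. In the TGF-beta group 4 of 18 were at least 2-fold higher and 1 lower, beside 7.15% and 3.12% of all measured genes. The higher ones were the latent binders LTBP1 (19.3 TPM in siNR1D1 cells, 2.66 TPM in siControl cells) and LTBP2 (332 TPM with siNR1D1 and 89.8 TPM with siControl), the ligand gene TGFB2 (27.4 TPM with siNR1D1 and 6.35 TPM with siControl) and the type I receptor gene TGFBR1 (57.1 TPM with siNR1D1 and 16.6 TPM with siControl). SMAD3, which carries the signal to the nucleus, was lower, at 154 TPM in siNR1D1 cells and 331 TPM in siControl cells. Of 12 angiogenic factor genes 6 were at least 2-fold higher, with a median of 1.11. With no filter on low values 6 of 16 were, with a median of 0.77. Beside ANGPTL4 these included the lymphatic growth factor gene VEGFC, at 27.7 TPM in siNR1D1 cells and 3.48 TPM in siControl cells. The apelin gene APLN was at 58.9 TPM with siNR1D1 and 6.26 TPM with siControl.

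Genes of cholesterol synthesis and uptake stood mostly higher. All 30 of 30 measured were above 0, beside 51% of all measured genes, and 13 were at least 2-fold higher. Of these, 2 were below 0 with a trimmed mean scaling, and with mitochondrial genes kept 4 of 29 were. Their median log2 ratio was 0.96, close to the 0.99 of 8505C cells. NPC1, which exports cholesterol from lysosomes, was at 136 TPM with siNR1D1 and 36.3 TPM with siControl. In synthesis the late enzyme gene SC5D was at 95.05 TPM with siNR1D1 and 28.5 TPM with siControl. The fatty acid and glycerolipid genes had 8 of 22 at least 2-fold higher and a median of 0.64. They were led by PNPLA3, a lipid droplet hydrolase gene at low level (8.89 TPM in siNR1D1 cells, 1.21 TPM in siControl cells), and the desaturase gene FADS2 (136 TPM with siNR1D1 and 38.1 TPM with siControl). Next came ACLY and ACSS2, both of which make acetyl-CoA, at 295 and 167 TPM in siNR1D1 cells and 86.2 and 50.5 TPM in siControl cells. A sterol regulatory element, searched as TCACNCCAC on both strands, occurred in 1 of the 23 measured cholesterol genes with a RefSeq promoter window, SREBF2, and in 1.39% of all genes with one.

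Interferon-stimulated genes also stood mostly higher. Of 32 measured, 18 were at least 2-fold higher and all were above 0, with a median of 1.03, beside 0.48 and 6 genes 2-fold higher in 8505C cells. With a trimmed mean scaling 11 were at least 2-fold higher and 1 was below 0, and with mitochondrial genes kept 2 of 22 were at least 2-fold higher and 4 below 0. IFI44 was at 140.1 TPM in siNR1D1 cells and 36.1 TPM in siControl cells, a ratio of 3.88 (3.32 to 4.56). MX1, a GTPase that blocks virus replication, was at 20.9 TPM in siNR1D1 cells and 5.74 TPM in siControl cells. SAMD9L was at 19.9 TPM with siNR1D1 and 5.64 TPM with siControl and HERC5, the ligase for ISG15, at 58.0 TPM with siNR1D1 and 18.4 TPM with siControl. In 8505C cells IFI44 stood at 0.16, MX1 at 0.55, SAMD9L at -0.25 and HERC5 at 1.15 on the log2 scale, so all 4 were nearer to 0 there. No filter was set on levels in 8505C cells, and the pseudocount holds ratios of genes at low levels near 0.

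Promoters of this group carry a known motif, the interferon-stimulated response element. Its core was searched as GAAA, any 2 bases and GAAA again, on both strands, in the RefSeq windows, and a gene was counted once however many matches it held. It occurred in 18 of 26 measured interferon-stimulated genes with a window, beside 4.38% of all genes with one. The genes with a match had a median log2 ratio of 0.88 and those without one 1.03, so the match did not go with larger ratios. Windows of the leading pair with a match are shown, with the core in capitals; in IFI44 it reads on the opposite strand.
IFI44, chr1:78649746-78649805, plus strand: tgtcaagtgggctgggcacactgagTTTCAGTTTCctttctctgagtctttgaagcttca
MX1, chr21:41420544-41420603, plus strand: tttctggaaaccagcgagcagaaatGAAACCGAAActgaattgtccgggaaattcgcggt
HLA class I presentation genes had 5 of 18 at least 2-fold higher, beside 7.15% of all measured genes. With a trimmed mean scaling 1 was, and with mitochondrial genes kept none. The peptide transporter gene TAP2 led them, at 46.4 TPM in siNR1D1 cells and 18.9 TPM in siControl cells. HLA genes share sequence with each other, so their reads may be divided between them. Among NF-kB targets and cytokines 7 of 22 were at least 2-fold higher and 1 lower. After PTX3 these were led by CSF2, at 18.2 TPM in siNR1D1 cells and 1.24 TPM in siControl cells, IL11 at 9.13 TPM with siNR1D1 and 1.22 TPM with siControl, and the neutrophil chemokine gene CXCL1 at 40.6 TPM with siNR1D1 and 9.79 TPM with siControl. CSF2 had 3 reads with siControl, so the size of its ratio is imprecise. With no filter on low values 9 of 32 genes of this list were at least 2-fold higher and 2 lower. With mitochondrial genes kept 3 of 13 were higher and 2 lower, and the median was -0.17 in place of 0.50.

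On the lower side stood the machinery of protein synthesis. All 78 cytosolic ribosomal protein genes were below 0, beside 49% of all measured genes, with a median log2 ratio of -0.81 and 6 past 2-fold lower. All were also below 0 with a trimmed mean scaling, with 34 past 2-fold lower, and with mitochondrial genes kept, with 68. Their summed level was 51288 TPM in siNR1D1 cells and 90742 TPM in siControl cells. RPL36 was at 166 TPM in siNR1D1 cells and 369 TPM in siControl cells, and RPS12 at 960.4 TPM with siNR1D1 and 2043 TPM with siControl. Ribosomal protein genes have many processed pseudogenes, so their reads are uncertain in part. Translation factors, whose mRNAs share a 5' pyrimidine tract with those of ribosomal proteins, had a median of -0.76, with the elongation factor genes EEF2 at 1360.5 TPM in siNR1D1 cells and 3160.3 TPM in siControl cells and EEF1A1 at 7754 TPM with siNR1D1 and 16090.0 TPM with siControl. The 8505C medians of both lists were nearer to 0, at -0.39 and -0.44.

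Most mitochondrial protein genes of the nucleus stood below 0 while transcripts of the mitochondrial genome took a larger share of the deposited TPM. Of 74 mitochondrial ribosomal protein genes 8 were past 2-fold lower and 0 higher, 64 were below 0 beside 49% of all measured genes, and they had a median of -0.47. Besides MRPS10, MRPL19 was at 16.9 TPM in siNR1D1 cells and 56.8 TPM in siControl cells. Of 74 nuclear respiratory chain genes 3 were past 2-fold lower, a share near the 3.12% of all measured genes, among them the complex I gene NDUFS6 at 47.6 TPM in siNR1D1 cells and 110.1 TPM in siControl cells, while 63 were below 0 and the median was -0.38. TWNK, the helicase that unwinds mitochondrial DNA, was at 17.6 TPM in siNR1D1 cells and 51.1 TPM in siControl cells. Purine synthesis had 5 of 18 past 2-fold lower, with PAICS at 31.7 TPM with siNR1D1 and 96.3 TPM with siControl and the mitochondrial folate enzyme gene MTHFD2 at 39.2 TPM with siNR1D1 and 118 TPM with siControl. Aminoacyl-tRNA synthetases had 4 of 20, with FARSB at 20.04 TPM in siNR1D1 cells and 53.9 TPM in siControl cells.

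Many of these lower groups hold short genes, and the ratio in CAL-62 cells went with exon length. With the genes in 5 bins of about equal size by exon length, the median log2 ratio was -0.19, -0.06, 0.01, 0.08 and 0.16 from shortest to longest, while in 8505C cells the medians were 0.07, 0.04, 0.03, -0.01 and -0.04. Genes past 2-fold lower made up 6.06% of the shortest bin and 1.22% of the longest, and genes past 2-fold higher between 6.50% and 7.90% of every bin. The median exon length was 3644.5 bases for genes past 2-fold lower, 5306.5 for those past 2-fold higher and 5173 for all measured. With the median of each of 20 exon-length bins subtracted, the list medians were -0.73 for ribosomal proteins, -0.34 for mitochondrial ribosomal proteins, -0.22 for the respiratory chain and 2.38 for collagens. The part of library preparation or RNA quality in this relation was not tested.

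**Figure D5:**
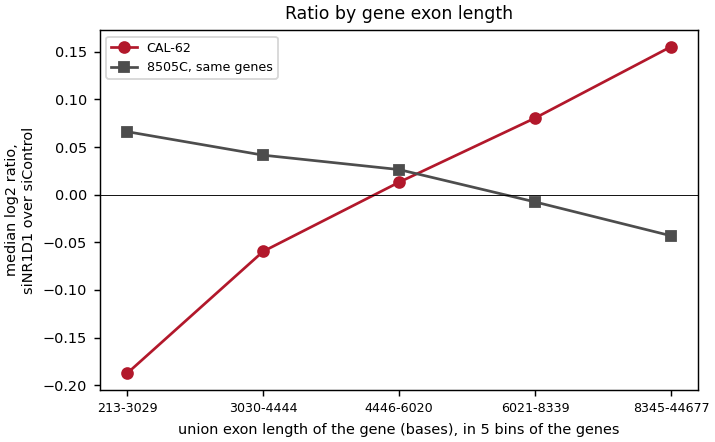
Median log2 ratio of siNR1D1 over siControl for measured genes in 5 bins of about equal size by union exon length in bases, with CAL-62 cells as red circles and the same genes in 8505C cells as grey squares. The CAL-62 medians run from -0.19 in the shortest bin to 0.16 in the longest, and those of 8505C from 0.07 to -0.04.

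Proliferation genes differed little in CAL-62 cells on the scale used here. None of 45 G2/M genes and none of 43 G1/S and replication genes was 2-fold higher or lower, with medians of -0.10 and -0.13. With a trimmed mean scaling the medians were -0.27 and -0.31, and 0 and 2 genes were past 2-fold lower. With mitochondrial genes kept they were -0.48 and -0.51, and 3 of 45 and 2 of 40 genes were past 2-fold lower. The largest G2/M ratios were those of the kinesin gene KIF4A, at 53.5 TPM in siNR1D1 cells and 95.4 TPM in siControl cells, and the spindle gene ASPM, at 134 TPM with siNR1D1 and 79.2 TPM with siControl. In 8505C cells the same G2/M genes had a median of 1.06, with 24 past 2-fold higher, beside 9.36% of genes measured there. Replication-dependent histone genes had 5 of 18 past 2-fold lower, with the linker histone gene H1-2 at 82.8 TPM in siNR1D1 cells and 273 TPM in siControl cells. Histone genes have near-identical copies and their mRNAs mostly lack poly(A) tails, and the way RNA was enriched before sequencing is not stated in the labels.

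Of the immediate early genes 13 of 16 stood below 0 in CAL-62 cells, while 14 stood above 0 in 8505C cells. Of 16 measured 3 were past 2-fold lower and 0 higher, beside 3.12% and 7.15% of all measured genes. The median was -0.47 in CAL-62 cells beside 0.50 in 8505C cells. After ATF3, MYC was at 52.0 TPM in siNR1D1 cells and 113 TPM in siControl cells, JUND at 67.1 TPM with siNR1D1 and 138 TPM with siControl and EGR1 at 119.9 TPM with siNR1D1 and 239 TPM with siControl. These genes are known to answer within minutes to serum and growth factors. The difference between the lines was not tested.

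The genes past 2-fold in CAL-62 cells were in part those past 2-fold in 8505C cells. Of 9505 genes measured in both lines, 560 were at least 2-fold higher in CAL-62 cells and 763 in 8505C cells, and 263 in both, which is 47.0% of the CAL-62 genes and 34.5% of the 8505C genes. At least 2-fold lower were 307 in CAL-62 cells and 286 in 8505C cells, with 101 in both, or 32.9% and 35.3%. Of all 10291 genes measured in 8505C cells, 9.36% were at least 2-fold higher and 3.37% lower. Of all 10626 measured in CAL-62 cells the shares were 7.15% and 3.12%. The shares of the higher and the lower side thus have different backgrounds, and both sets are larger than the 9505 genes compared. The log2 ratios correlated across genes with a Pearson r of 0.59 and a Spearman rho of 0.56, where genes are not independent replicates. The genes measured in CAL-62 cells were also put in 5 bins by transcript GC content. The 8505C median log2 ratio was -0.19 in the lowest bin and 0.52 in the highest. The CAL-62 medians were 0.06 and 0.13, with -0.07 in the middle bin. With the median of each GC bin subtracted, 39.3% of the higher and 29.45% of the lower CAL-62 genes were shared. The part of GC content in the correlation was not tested. The lines share no library, and the labels do not say whether the same siRNAs were used in both. Opposite 2-fold ratios were found for 9 genes. FGFBP1, which releases fibroblast growth factors from the matrix, was at 128 TPM in siNR1D1 cells and 336 TPM in siControl cells of CAL-62, but at 284 TPM in siNR1D1 cells and 22.4 TPM in siControl cells of 8505C. ADAMTS15, a matrix protease gene, and THBD, the thrombomodulin gene, had log2 ratios of -1.21 and -1.61 in CAL-62 cells and 2.72 and 1.25 in 8505C cells; these 3 genes were chosen after their values were seen.

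Markers of other cell types were read because some of the genes above are also known from stroma and immune cells. In bulk RNA fewer cells of a type and less RNA per cell cannot be told apart. Of 14 immune markers CD14 alone was measured; the summed level was 41.7 TPM in siNR1D1 cells and 5.31 TPM in siControl cells, and PTPRC, which all leukocytes express, stood at 0.17 TPM with siNR1D1 and 0.11 TPM with siControl. Of 10 fibroblast markers COL1A2 and PDPN were measured, 3 were at 0 in both libraries including DCN and THY1, and the sum was 991 TPM in siNR1D1 cells and 478 TPM in siControl cells. Of 10 endothelial and pericyte markers MCAM alone was measured, with PECAM1 at 0.27 TPM with siNR1D1 and 0.17 TPM with siControl. The epithelial genes EPCAM, at 1007 TPM in siNR1D1 cells and 453 TPM in siControl cells, and KRT8, at 293 TPM with siNR1D1 and 401.1 TPM with siControl, were abundant in both. Of the thyroid genes that were measured, PAX8, the lineage factor, was at 281 TPM in siNR1D1 cells and 126 TPM in siControl cells, and HHEX was at 135 TPM with siNR1D1 and 159 TPM with siControl.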

How the data were processed

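Cells were lysed in Trizol and standard Illumina libraries were made from their RNA, per the labels' protocols. The submitters' processing notes name FastQC, MultiQC, Trimmomatic 0.38 and featureCounts 2.0.0, and the build GRCh38. They name no aligner, annotation release or strand setting among the sources used here. The authors deposited TPM for CAL-62 and 8505C, in columns that sum to 1000000. Those deposited for TPC-1 and FTC-133 are named TPM, but value times exon length sums as FPKM does, so they were read as FPKM; from them only the share of mitochondrial transcripts was computed.

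Genes with the prefix MT- were dropped, columns were rescaled to a sum of 1000000, and log2 ratios used a pseudocount of 1. Biotypes, exon lengths and 3' UTRs came from GENCODE 29, symbols from a gene name table and promoters from RefSeq. Of all 58884 genes 8 had no symbol. Reads were recovered by multiplying each value by exon length and dividing by what 1 read is worth. Of the values of 1 to 10 reads, between 92.7% and 93.8% were whole within 0.02 over the libraries, too few for a count model. The reads gave 95% counting intervals (exact Clopper-Pearson, from the share of each library) and floors of 3 reads, which cover counting error only. No test was made, since there is 1 library a side. Genes past a log2 ratio of 1 in either direction were counted.

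Genes named are NR1D1, the clock genes, the 15 highest and the 15 lowest ratios and up to 4 members of each list. Some genes that this rule names are not reported here. The members and the 61 lists were chosen with earlier results of these data known. Alternatives were the values with mitochondrial genes kept, other scalings, pseudocounts, filters and biotypes; adjustments for exon length and GC content and leaving out ATGAGCA carriers were chosen after seeing the data. Scripts were tested on simulated data. Python 3.11.15, pandas 2.3.3, numpy 2.4.6, scipy 1.17.1 and matplotlib 3.10.9 were used.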

Additional observations from a re-analysis of the deposited data

Results flagged for a closer look

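Differences between CAL-62 and 8505C cells under the same contrast are given here because their directions were opposite; none of them was tested. The glucose transporter gene SLC2A3 had a log2 ratio of 1.13 in CAL-62 cells and -1.53 in 8505C cells. It was at 11.1 TPM in siNR1D1 cells and 4.56 TPM in siControl cells of CAL-62, and at 33.0 TPM in siNR1D1 cells and 97.4 TPM in siControl cells of 8505C. The median log2 ratio of immediate early genes was -0.475 in CAL-62 cells and 0.496 in 8505C cells. With 1 library a side, a difference between lines cannot be told apart from a difference between single libraries.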

How the results depend on the processing

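No paired analysis was possible because each group has 1 library, and for the same reason no library could be left out. Scaling had the widest effect. With mitochondrial genes kept there were 202 genes 2-fold higher and 955 lower, NR1D1 had a log2 ratio of -1.04, 9 lists had a median of at least 0.5 in place of 23, 15.8% of the lower genes were shared with 8505C in place of 32.9%, and the NF-kB and cytokine median was -0.17. On that scale 9 list medians changed sign, those of the clock, corepressor, MAPK output and TGF-beta lists among them. A trimmed mean shifted list medians by -0.17, which gave 611 genes lower and 14 lists. The filter changed the counts too: a mean of 20 or more gave 441 higher and 216 lower, no filter gave 1158 higher, and all biotypes gave 1477 higher and 593 lower. NR1D1 was below 0 under each scaling, pseudocount and adjustment run. The genes past 2-fold were counted at 1 depth a side, so genes near 5 TPM, with few reads, are the least precise.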

Other observations

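Some gene groups held members past 2-fold in both directions. Of 22 glycolysis and glucose transport genes 4 were at least 2-fold higher and 1 lower, beside 7.15% and 3.12% of all measured genes. The lactate exporter gene SLC16A3 was at 26.4 TPM in siNR1D1 cells and 5.17 TPM in siControl cells and the glucose transporter gene SLC2A1 at 394 TPM with siNR1D1 and 145 TPM with siControl, opposite to PGAM1. Of 12 measured scramblase and flippase genes 11 were above 0 and 3 at least 2-fold higher. ANO6 was the 1 below 0. PLSCR4 was at 73.2 TPM in siNR1D1 cells and 12.1 TPM in siControl cells, and XKR8, which exposes phosphatidylserine in dying cells, at 39.0 TPM with siNR1D1 and 15.3 TPM with siControl, opposite to ANO6. Hippo pathway genes were evenly divided, with 10 of 20 above 0, a median of -0.02, 1 past 2-fold higher (TGFB2) and 3 lower. Of the lower ones, the coactivator gene WWTR1 (TAZ) was at 33.6 TPM in siNR1D1 cells and 90.0 TPM in siControl cells, AMOTL1 at 18.1 TPM with siNR1D1 and 51.7 TPM with siControl and TEAD4 at 15.7 TPM with siNR1D1 and 32.8 TPM with siControl.

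Epithelial genes had 5 of 19 at least 2-fold higher and 6 below 0, and mesenchymal genes 2 of 15 and 4. Their medians were 0.61 and 0.68, which were 0.13 and 0.27 with mitochondrial genes kept and 0.30 and 0.43 with no filter on low values. The cadherin genes CDH3, at 10.9 TPM in siNR1D1 cells and 2.04 TPM in siControl cells, and CDH2, at 324 TPM with siNR1D1 and 141 TPM with siControl, led them with SPINT1, a protease inhibitor gene, at 275 TPM with siNR1D1 and 69.4 TPM with siControl. KRT7 stood apart, at 568 TPM in siNR1D1 cells and 1334 TPM in siControl cells. The metallothionein genes MT2A and MT1E, which bind zinc and copper, were at 1478 and 398 TPM in siNR1D1 cells and 3736 and 904 TPM in siControl cells, while in 8505C cells MT2A had a log2 ratio of 0.47 and MT1E was listed at 0 in both libraries. Of 16 Wnt genes 5 were at least 2-fold higher, or 8 of 30 with no filter on low values. The ligand gene WNT5B led them, at 12.2 TPM in siNR1D1 cells and 1.30 TPM in siControl cells. Among apoptosis genes the death receptor gene FAS was at 88.8 TPM in siNR1D1 cells and 24.5 TPM in siControl cells and the BH3-only gene BMF at 8.01 TPM with siNR1D1 and 28.97 TPM with siControl. The medians of heme synthesis and of the NCOR and HDAC3 corepressor genes, the partners of REV-ERB alpha, were -0.12 and 0.20, with none of their 13 and 6 genes past 2-fold; the corepressor median was -0.31 with mitochondrial genes kept and 0.03 with a trimmed mean scaling.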
